A study of Mus musculus with 8 samples.

Results

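The regions described here are the broad ones among the stretches of DNA where 5-hydroxymethylcytosine (5hmC) differed between Ogt knockout and control mouse embryonic stem cells. They were chosen by width: every autosomal region of 2000 bp or more in the authors' deposited lists, leaving out X, Y and a single interval of over 30 kb at the start of chromosome 9. This gave 642 regions of the 12594 listed, or 5.13% of the 12519 autosomal ones kept for comparison. Of these 642, 587 were higher in the knockout and 55 were lower. X and Y held 0 regions this wide.

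The study measured 5hmC by CMS-IP, in which bisulfite turns 5hmC into cytosine 5-methylenesulphonate and an antibody against that product pulls down the DNA fragments carrying it. All 8 samples came from stem cells with both Ogt alleles floxed (Ogt fl/fl), grown on feeder fibroblasts with LIF. In the knockout group (Ogt iKO), 4-hydroxytamoxifen was given for 6 days and live cells positive for the YFP reporter were sorted; control cells had no 4-hydroxytamoxifen, and a YFP sort is described for the treated cells only. Each condition has 2 CMS-IP and 2 input libraries; the driver of the recombinase and the origin of the replicates are not given in the sources used here. Because drug, reporter sort and Ogt loss go together in these groups, they cannot be told apart. The lists hold positions only, so depth, fold change and replicate spread per region are unknown, and no marker of cell type can be read from them. Every interval and test below is over regions of these lists, which are not biological replicates.

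TET dioxygenases oxidise 5-methylcytosine to 5hmC, an intermediate on the way to unmodified cytosine. In embryonic stem cells 5hmC is found over gene bodies, enhancers and promoters of low CpG density, while CpG-rich active promoters carry little. OGT, the enzyme that attaches O-GlcNAc to proteins, binds TET proteins, and OGA removes the same sugar. Width here is the listed end minus the listed start; how calls were joined into a region is not given in the sources used here.

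Few broad regions were found to contain a whole annotated promoter window. RefSeq promoter windows (250 bases before to 50 after a start, GRCm38.p6, the assembly of mm10) lay wholly inside 14 higher and 2 lower broad regions; 79.6% of autosomal protein-coding genes have at least 1. Counting CpG in the 250 bases before the start, the 14 windows in higher broad regions held a median of 4 CpG (2 to 11), against 10 over all 20085 protein-coding and 3 over all 11311 long noncoding windows. Narrower higher regions gave much the same, a median of 5 over 19 windows, though many of them are too short to hold a whole window. A count of 10 or more occurred in 1 of the 14 and 1 of those 19, against 51.3% of protein-coding and 15.3% of long noncoding windows. Of the 14 starts, 5 belonged to protein-coding genes (Mef2c, Angptl1, Tnn, Flacc1 and E030018B13Rik) and 9 to long noncoding RNAs. The 2 lower regions contained starts of Ankrd45 and Bcl2l1. The sequences before 5 of these starts are shown because they are where the broad regions and annotated promoters meet; Ankrd45 follows the naming rule and the others were picked after their positions were seen. They read 5′ to 3′ on the gene's strand, with each CpG, the dinucleotide at which mammalian DNA is mainly methylated, in capitals.
Mef2c, higher, chr13:83573357-83573606, plus strand: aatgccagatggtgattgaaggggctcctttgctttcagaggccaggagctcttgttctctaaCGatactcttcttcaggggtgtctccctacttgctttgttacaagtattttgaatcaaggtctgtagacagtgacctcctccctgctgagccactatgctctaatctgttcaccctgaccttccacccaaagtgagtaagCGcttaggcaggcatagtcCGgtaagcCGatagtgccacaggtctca
Angptl1, higher, chr1:156838773-156839022, plus strand: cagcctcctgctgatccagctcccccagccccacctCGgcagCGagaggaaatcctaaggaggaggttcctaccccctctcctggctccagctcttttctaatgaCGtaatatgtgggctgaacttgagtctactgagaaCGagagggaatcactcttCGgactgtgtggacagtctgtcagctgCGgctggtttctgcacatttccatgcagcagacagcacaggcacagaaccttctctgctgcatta
Tnn, higher, chr1:160153576-160153825, minus strand: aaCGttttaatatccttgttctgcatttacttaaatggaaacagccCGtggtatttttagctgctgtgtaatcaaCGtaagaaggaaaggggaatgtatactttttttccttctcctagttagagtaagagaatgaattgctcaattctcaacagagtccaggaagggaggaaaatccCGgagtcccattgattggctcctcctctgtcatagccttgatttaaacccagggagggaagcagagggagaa
Bcl2l1, lower, chr2:152828490-152828739, minus strand: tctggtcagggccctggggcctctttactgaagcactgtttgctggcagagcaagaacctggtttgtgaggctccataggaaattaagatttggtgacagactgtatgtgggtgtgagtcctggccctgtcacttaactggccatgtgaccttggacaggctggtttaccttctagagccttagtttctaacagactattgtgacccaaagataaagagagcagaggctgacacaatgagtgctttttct
Ankrd45, lower, chr1:161142447-161142696, plus strand: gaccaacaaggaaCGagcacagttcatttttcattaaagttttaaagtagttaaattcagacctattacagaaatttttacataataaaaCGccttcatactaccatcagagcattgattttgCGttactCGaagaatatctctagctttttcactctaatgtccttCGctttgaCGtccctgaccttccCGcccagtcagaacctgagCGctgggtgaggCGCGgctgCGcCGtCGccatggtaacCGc

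The 3 windows shown from higher regions held 4 CpG in that of Mef2c, a transcription factor of muscle and neurons, 6 in that of the angiopoietin-like secreted protein Angptl1 and 4 in that of the tenascin Tnn. Counts up to 4 occur in 32.8% of protein-coding windows and counts up to 6 in 40.2%. The 2 lower regions that held a whole promoter window gave both extremes of the set. Narrower lower regions gave a range of 0 to 31 CpG over 24 windows, with a median of 4.5. Bcl2l1, which encodes the anti-apoptotic protein BCL-XL, had 0 CpG before this start, as do 6.31% of protein-coding windows, and at least 1 CpG occurs in the remaining 93.7%. Ankrd45 had 14, a count reached or passed by 40.6% of protein-coding windows. The start of Mef2c lay 2218 bp from the left and 2180 bp from the right edge of its 4399 bp region, near the middle. That region lay inside the gene, with its midpoint at 42.7% of the gene's length. The midpoint of the region at Bcl2l1 lay at 6.72% of its gene, 5048 bp from the nearest gene end. The CpG counts of Mef2c and Bcl2l1 are therefore those of internal starts, and other starts of these genes are not shown. The region at Ankrd45 reached 2109 bp before and 3385 bp beyond the start shown.

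A single microRNA hairpin of the 1005 in the RefSeq table overlapped a broad region, and 7 overlapped narrower ones. It was Gm51288 (mir-12182), within a higher region of 2547 bp at chromosome 11, 86851997 to 86854543. Its mature arms are printed with the seed, bases 2 to 8, in capitals.
mmu-miR-12182-5p: aCAGCGCCagcugccuaauuga
mmu-miR-12182-3p: uAAUUAGGcucuggaucuguga

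Higher regions made up nearly all of the broad set. Of the 642 broad regions, 91.4% were higher (95% Wilson interval 89.0 to 93.4%, counting error only), against 67.1% of the 11877 narrower autosomal regions (66.3 to 68.0%) and 68.4% of all autosomal ones. That is 10.7 higher regions for each lower one among broad regions and 2.04 among narrower ones. Seen from each list, 6.86% of the 8558 autosomal higher regions were broad (6.34 to 7.41%) and 1.39% of the 3961 lower regions were (1.07 to 1.80%). Width and direction come from the same comparison of knockout with control, so these shares are a description and were not tested.

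**Figure D1:**
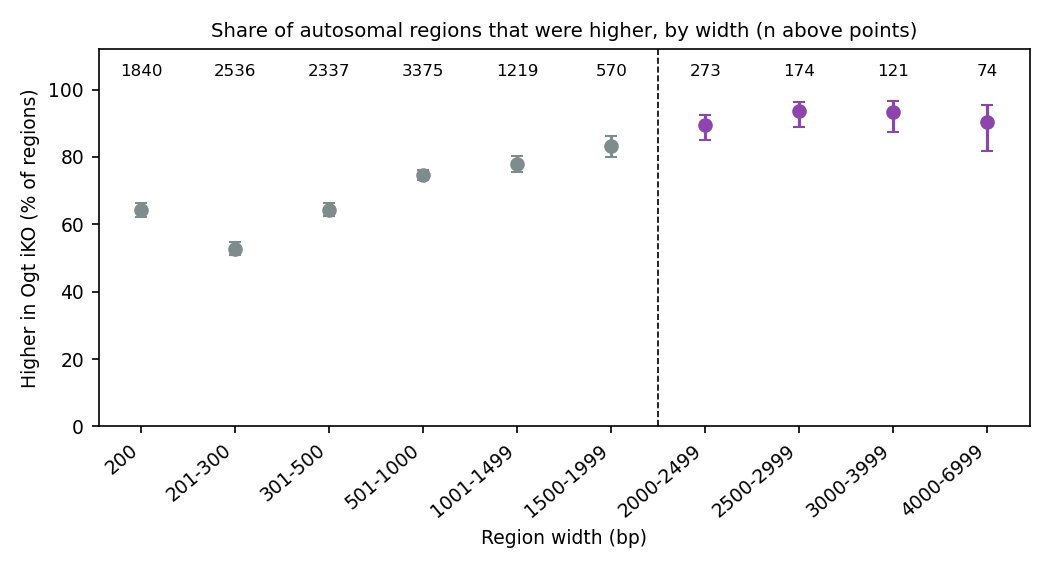
Share of autosomal regions higher in Ogt iKO (y axis, percent) by region width in bp (x axis); points are shares, bars 95% Wilson intervals, numbers above are regions, and the dashed line marks 2000 bp. The share was 52.8% just above 200 and up to 300 bp and stood between 89.4% and 93.7% in the 4 classes of 2000 bp or more.

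The share of higher regions changed with width below the limit as well as across it. It was lowest, 52.8%, among the 2536 regions over 200 and up to 300 bp, and 64.3% among the 1840 regions at the minimum width of 200 bp. It reached 74.7% above 500 and up to 1000 bp, 77.9% at over 1000 to under 1500 bp and 83.3% at 1500 to under 2000 bp. Within the broad set it was 89.4% at 2000 to under 2500 bp (273 regions), 93.7% up to under 3000 bp (174), 93.4% up to under 4000 bp (121) and 90.5% from 4000 bp (74). The intervals of these last 4 classes overlap. No step was seen at the limit itself: 67 of 79 regions within 100 bp below it and 59 of 69 within the first 100 bp above it were higher. The narrowest member measured 2000 bp (chromosome 6, 134210211 to 134212210) and the widest region outside the set 1998 bp (chromosome 19, 29208549 to 29210546), and both were higher.

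Once past the limit, the lists had much the same widths. The median was 2607 bp for higher (quartiles 2284.5 and 3174.5 bp) and 2440 bp for lower regions (2163 and 3138.5 bp). Regions of 3000 bp or more numbered 180 of 587 and 15 of 55, and those of 5000 bp or more 24 and 5. The widest region of all was a lower one, 6638 bp in Nf2, against 6404 bp in the higher list. Broad regions covered 1.70 Mb in the higher and 0.159 Mb in the lower list. Together they held 21.4% of all autosomal listed sequence in 5.13% of the regions.

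**Figure D2:**
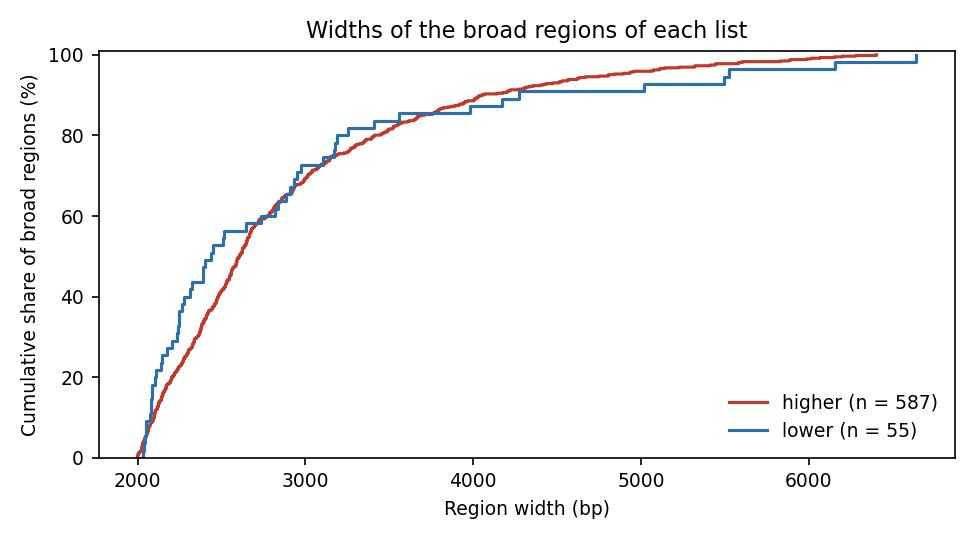
Cumulative share (y axis, percent) of the 587 higher (red) and 55 lower (blue) broad regions at or below a width (x axis, bp). The curves run close together, with medians of 2607 and 2440 bp.

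Every autosome held broad regions, from 19 on chromosome 12 to 55 on chromosome 2. As a share of the chromosome's listed regions they ranged from 3.67% (chromosome 12) to 7.56% (chromosome 19, 27 of 357, interval 5.25 to 10.8%). On 19 of 19 autosomes the higher share among broad regions exceeded that among narrower ones. It ran from 84.2% (16 of 19, chromosome 12) to 100% (27 of 27, chromosome 19, where the Wilson interval still reaches down to 87.5%), while narrower regions gave 62.2 to 73.0%. Chromosome 19 was the autosome with no lower broad region, and chromosomes 1, 6 and 9 had the most, with 6, 5 and 5. The Wilson intervals of the chromosomes with the lowest and highest share overlap.

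**Figure D3:**
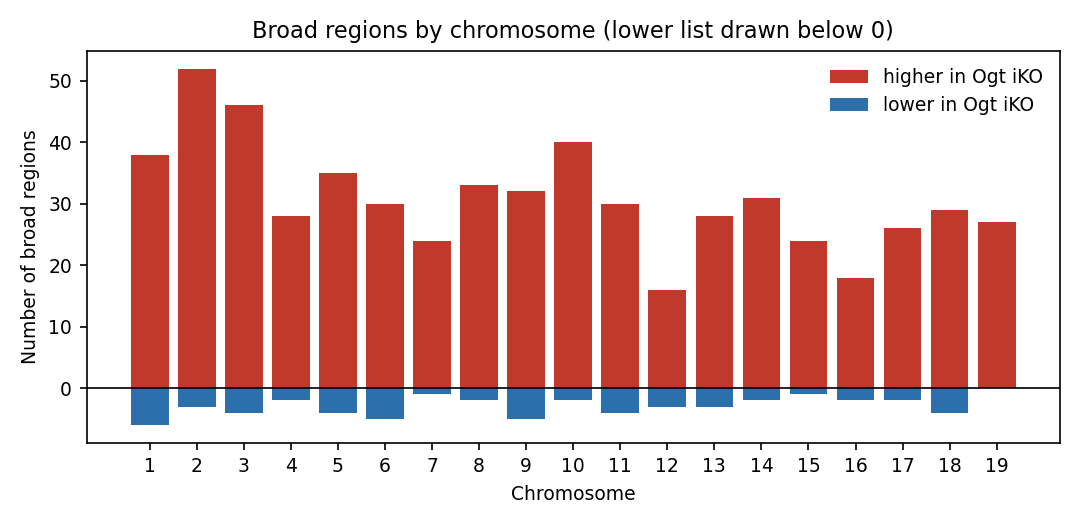
Number of broad regions per autosome (y axis), higher in Ogt iKO above 0 in red and lower below 0 in blue. Higher regions number 16 to 52 per chromosome and lower ones 0 to 6.

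Position relative to genes was not used to choose the regions and could be tested. Higher broad regions lay in gene bodies more often than narrower higher ones. Their midpoints fell inside a gene, over 1 kb from either end, in 412 of 587 cases (70.2%, Wilson interval 66.4 to 73.7%), against 4563 of 7971 narrower regions (57.2%, 56.2 to 58.3%). The odds ratio was 1.76 by Fisher's exact test, taken two-sided (p = 1.45e-09 after Benjamini-Hochberg adjustment for 6 tests). Correspondingly, 21.1% (124) lay between genes, against 35.0% (odds ratio 0.498, exact p = 1.13e-11 after adjustment). Within 1 kb of a gene end the shares were 8.69% (51) and 7.78%, a difference that did not pass the test (odds ratio 1.13, adjusted exact p = 0.511). Against regions of 1000 to under 2000 bp alone, the gene-body odds ratio was 1.56 (adjusted exact p = 7.21e-05).

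Lower broad regions were few, and no difference of theirs passed. Midpoints inside a gene made up 33 of 55 (60.0%, interval 46.8 to 71.9%), against 52.4% of 3906 narrower lower regions (odds ratio 1.36, adjusted exact p = 0.511). Between genes lay 19 (34.5%, against 37.2%), and within 1 kb of a gene end 3 (5.45%, interval 1.87 to 14.9%, against 10.4%). Whether the gene-body difference itself differs between the lists was not tested.

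**Figure D4:**
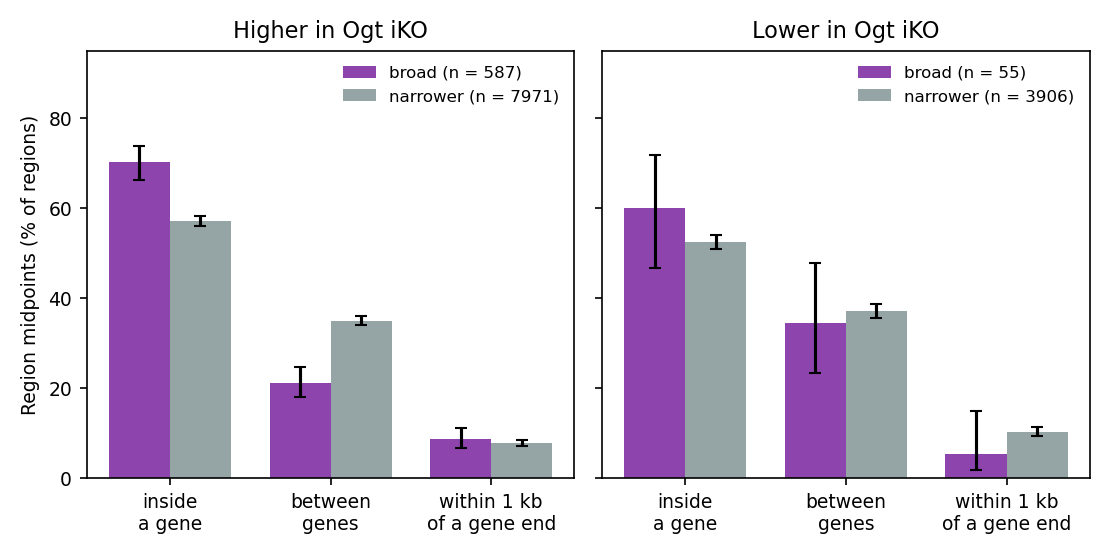
Percent of region midpoints (y axis) inside a gene, between genes or within 1 kb of a gene end, for broad (purple) and narrower (grey) autosomal regions of each list; bars carry 95% Wilson intervals. In the higher list 70.2% of broad and 57.2% of narrower midpoints lay inside genes.

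Gene starts and finishes, separated with the strand of the promoter table, showed no such difference. A start lay within 1 kb of 12 of 558 higher broad midpoints (2.15%) and 2.00% of narrower ones, and a finish within 1 kb of 20 (3.58%) and 2.84%. Among lower regions, 2 of 51 (3.92%) were near a start and 1 (1.96%) near a finish, against 4.57% and 3.24%. All 4 adjusted p-values were 1 (Fisher's exact test). Chromosome 18 and genes without a promoter window do not enter these counts, so the shares are minimum values. When any overlap was counted in place of midpoints, higher broad regions exceeded narrower ones at gene ends (odds ratio 2.08), starts (2.23) and finishes (2.56). A wide region can overlap more ends by its length alone, and the part this plays was not tested.

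The genes around higher broad regions were not the longest ones. The longest protein-coding gene at the midpoint had a median length of 95.2 kb (410 regions, quartiles 46.3 and 199 kb), against 115 kb for narrower higher regions. For lower regions the medians were 75.1 kb (31 regions) and 102 kb. Counted from the gene start, higher broad midpoints lay at a median of 58.7% of the host's length (311 regions with a known strand) and narrower ones at 53.5%. Genes were also counted by their lowest coordinate, whatever the strand. A median of 21 lay within 500 kb of a higher and 27 of a lower broad midpoint, against 19 and 21 for narrower regions. These medians are given without a test.

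Most broad regions had no other listed region within 10 kb. The nearest other listed region of either direction was a median of 39080 bp away for higher and 26788 bp for lower broad regions, against 47094 and 51014 bp for narrower ones. The lower value depends on the width limit: it was 39878.5 bp from 1500 bp and 68111 bp, above the narrower one, from 3000 bp. Another region within 10 kb was found for 102 of 587 higher (17.4%) and 14 of 55 lower broad regions (25.5%, interval 15.8 to 38.3%), against 14.2% and 12.5%. The neighbour had the same direction for 71 of those 102 (69.6%) and 8 of those 14 (57.1%, interval 32.6 to 78.6%), against 73.2% and 32.6% for narrower regions. No 2 listed regions lie closer than 1001 bp. Broad regions themselves were scattered: with members within 100 kb joined, the 587 higher ones formed 551 groups, 33 of them with 2 or 3 members, and no 2 of the 55 lower ones were joined.

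Among the 15 widest higher regions, 5442 to 6404 bp, 12 overlapped a protein-coding gene. After the 4 that lead the list (an intergenic region on chromosome 2, then Dhx57, Oga and Samhd1), the order continued with 6069 bp in Utrn, the gene of the dystrophin relative utrophin (chromosome 10, 12707531 to 12713599). A region of 6016 bp lay in the HMG-box gene Hmgxb3 (chromosome 18, 61168723 to 61174738). The next, 5988 bp at chromosome 5, 98281854 to 98287841, overlapped no gene and lay 4820 bp from the span of Fgf5, a growth factor gene typical of formative pluripotency. Further ones lay in N4bp2 (5892 bp), in Vps8, which encodes an endosomal tethering subunit (5883 bp), and in the nucleoporin gene Seh1l (5605 bp). Pard3, a cell polarity gene, held 5579 bp, Heatr1, a ribosome biogenesis gene, 5447 bp, and the SNARE gene Stx16 was overlapped near one end by 5442 bp. The remaining ones were 5829 bp between genes on chromosome 4, 74390 bp from Atg4c, and 5585 bp in 9530077C05Rik. The nearest listed neighbour was higher for 11 of these 15, close to the 68.4% of all autosomal regions that are higher.

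The 15 widest lower regions measured 3107 to 6638 bp, and 8 overlapped a protein-coding gene. The 5 widest touch Nf2, which encodes the Hippo pathway regulator merlin, Anp32a, the RNA-binding protein gene Rbpms, Ankrd45 and Lefty2, a secreted Nodal inhibitor. That in Nf2 was isolated, 148499 bp from the nearest listed region, and that in Rbpms 184597 bp, whereas that in Anp32a had another lower region 5219 bp away. Next came 4272 bp between genes on chromosome 12, 22411 bp from Dtnb, and 4169 bp in the fatty acid elongase gene Elovl6, close to its start (9178 bp from the midpoint, chromosome 3, 129539482 to 129543650). Tbcel held 3555 bp and Lrrc8d, which encodes a volume-regulated anion channel subunit, 3179 bp. A region of 3982 bp lay in the noncoding gene Banf2os. The other 5 lay between genes, with Pwwp2a, Fam3c, Rnf168, Stoml1 and Ranbp17 as the nearest coding genes. The nearest neighbour was lower for 3 of the 15, and 31.6% of all autosomal regions are lower.

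The remaining 40 lower regions measured 2030 to 2974 bp. Relb, an NF-kappa-B subunit, held 2512 bp (chromosome 7, 19620028 to 19622539), and Rbpj, the DNA-binding effector of Notch signalling, 2047 bp (chromosome 5, 53558194 to 53560240). The ubiquitin ligase genes Nedd4l and Siah1a held 2734 and 2243 bp. Trim24 held 2111 bp, Hmg20b 2974 bp and the phosphodiesterase gene Pde4d 2820 bp. These genes were picked from the lower list after their positions were seen. In all, 32 of the 55 lower regions overlapped a protein-coding gene, 4 a long noncoding gene alone and 19 no gene. Of the 587 higher regions, 419 overlapped a protein-coding gene, 38 a long noncoding gene alone, 10 other annotated genes alone and 120 none.

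Broad regions marked few genes. Midpoints of higher broad regions fell in the span, extended by 1 kb, of 402 protein-coding genes (1.95% of 20665 on autosomes), and those of lower ones in 33 (0.16%). Long genes held them more often: 0.790% of genes under 50 kb, 3.9% of those from 50 to 100 kb, 7.25% from 100 to 300 kb and 9.94% of the 533 from 300 kb held a higher broad region. For narrower higher regions the corresponding shares were 6.86%, 30.7%, 49.9% and 73.2%.

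Most of these genes held a single broad region: 21 held 2 or more higher ones, 4 of them 3, and 0 held 2 lower ones. Cyp20a1, a cytochrome P450 gene of 44.8 kb, held 3 with no narrower region beside them. They measured 2171, 2140 and 3658 bp (chromosome 1, 60352680 to 60354850, 60359918 to 60362057 and 60369141 to 60372798), with gaps of 5067 and 7083 bp. Lrch1 held 4022, 3917 and 2546 bp over 193 kb. Arl15, a small GTPase gene of 363 kb, held 2589, 2281 and 3190 bp, and the last of these also contains the start of the noncoding A430090L17Rik. In Klf13, a Krüppel-like transcription factor gene, 4749 and 2461 bp lay 4434 bp apart, and the wider one contains the start of E030018B13Rik. The teneurin adhesion genes Tenm3 (3778 and 3354 bp) and Tenm4 (2829 and 4436 bp) and the polarity gene Pard3 (5579 and 2860 bp) held 2 each in spans of 549 to 1297 kb. Further pairs lay, among others, in Bmp2k, Crim1, Grip1, Phtf2, Pdzd2, Prkch, Smarcad1, Utp20, Zfp521 and Zfp951, and in Cdh13 and Hmgxb3. Smarcad1 encodes a chromatin remodeller (2607 and 3954 bp). Narrower lower regions also lay in Cdh13 (4), Tenm3 (3), Tenm4 (3) and Pard3 (1), beside 10, 6, 5 and 4 narrower higher ones. Arl15, Crim1, Grip1, Pdzd2, Prkch, Smarcad1 and Utp20 each held 1 narrower lower region as well.

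Broad regions of opposite direction met in 2 genes. In Tbcel, a gene of 59.9 kb related to tubulin folding cofactor E, a lower region of 3555 bp (chromosome 9, 42436588 to 42440142) and a higher one of 2718 bp (42448573 to 42451290) lay 8430 bp apart, and no narrower region was listed in the gene. In Magi1, a scaffold gene of cell junctions (608 kb), a higher region of 2240 bp and a lower one of 2278 bp lay 20686 bp apart (chromosome 6, 93826944 to 93829183 and 93849870 to 93852147), beside 4 narrower higher regions. Of the 4 pairs of broad regions within 10 kb, the other 3, found in Cyp20a1 and Klf13, joined higher regions.

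**Figure D5:**
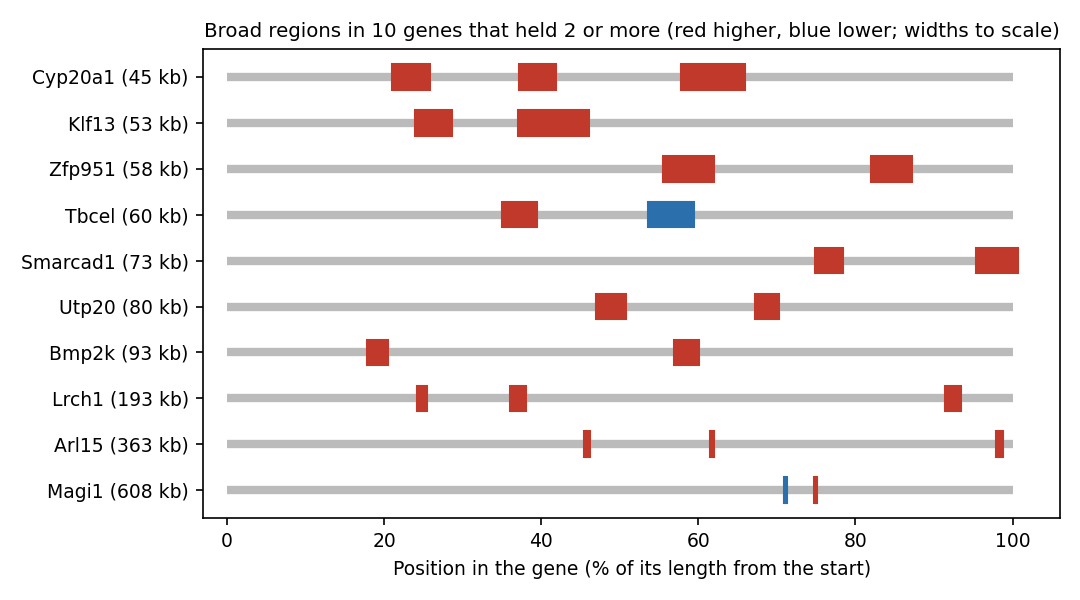
Broad regions drawn to scale along 10 genes that held 2 or more and have a known strand, as percent of gene length from the start (x axis); red is higher in Ogt iKO, blue lower, and gene lengths are in parentheses. Tbcel and Magi1 hold 1 broad region of each direction, and the broad regions of the other 8 genes are all higher. Narrower regions, some of them lower, are not drawn.

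Gene groups of stem cell biology were then read against the background of 1.95% and 0.16%. Over 16 lists with 330 autosomal genes, 14 genes held a higher broad region and 3 a lower one. Among listed genes, no broad region lay in any of 20 naive pluripotency, 12 formative pluripotency or 22 DNA methylation and heterochromatin genes. Nor did one lie in the 19 Polycomb, 15 TET and 5hmC-processing, 26 imprinted or 20 fibroblast genes listed. These lists are selections and not complete. Outside them, higher broad regions lay in the Polycomb gene Pcgf5 (3711 bp) and the imprinted genes Zdbf2 (2275 bp) and Sfmbt2 (2154 bp). These 3 were picked after their positions were seen. The fibroblast list stands for the feeder cells, which cell sorting on CD90.2 and CD326 was meant to separate from the stem cells; 3 of its 20 genes held a narrower higher region and 1 a narrower lower one, against 15.1% and 8.75% of all autosomal protein-coding genes. The absence of a listed region does not show that a gene kept its 5hmC.

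In O-GlcNAc cycling, 1 of 7 genes held a broad region: Oga, with 6200 bp in a gene of 33.4 kb. Its midpoint lay at 90.1% of the gene's length and 3315 bp from the gene's end. Chromatin remodelling genes had 3 of 21, all higher: the helicase genes Chd3 (4273 bp, chromosome 11, 69344210 to 69348482) and Chd2 (2988 bp, chromosome 7, 73507558 to 73510545) and the SWI/SNF ATPase gene Smarca2 (2885 bp, chromosome 19, 26653562 to 26656446). That in Chd2 had no other listed region within 194627 bp, while that in Smarca2 had one 6205 bp away. The median gene length of this list was 77.8 kb, and 3.9% of genes from 50 to 100 kb held a higher broad region. Narrower higher regions lay in 9 of the 21 genes and narrower lower ones in 4, and Smarca2 held 2 of each. Cadherin and synaptic adhesion genes had 4 of 26 (Auts2, Cdh13, Ctnnd2 and Sdk1). They are long, with a list median of 998 kb, and their 5 regions of 2001 to 2677 bp are near the lower limit of width. Of all genes of 300 kb or more, 9.94% held a higher broad region. Narrower higher regions lay in 18 of the 26, against 73.2% of all genes of 300 kb or more, and narrower lower ones in 12. Auts2, kept in this list, encodes a nuclear regulator of transcription and not an adhesion molecule.

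Signalling genes had single broad regions in both directions. In the Nodal group, Lefty2 lay under the lower region of 5017 bp, which overlaps one end of this gene of 6.00 kb, and Pcsk6, a proprotein convertase gene, held a higher one of 2499 bp (chromosome 7, 66038075 to 66040573). In the Hippo group, Nf2 held the lower region of 6638 bp and Wwtr1, which encodes the coactivator TAZ, a higher one of 2567 bp (chromosome 3, 57550625 to 57553191). Axin1, a scaffold of the beta-catenin destruction complex, held 2100 bp, higher, as the only one of 31 Wnt, BMP and FGF genes. Among 26 lineage transcription factors, Meis2 held 2103 bp, higher. Matrix genes had 2 of 20, the collagen gene Col4a2 with 4419 bp (chromosome 8, 11367857 to 11372275) and the laminin receptor gene Itga6 with 2965 bp (chromosome 2, 71840781 to 71843745), both higher. The matrix list had a median gene length of 108 kb, and 7.25% of genes from 100 to 300 kb held a higher broad region. In the RNA-binding group Rbpms, with its lower region of 5525 bp, was the 1 of 28 listed genes. This list is not complete. Higher broad regions lay in Elavl1 (2349 bp), Rbm26 (3126 bp) and Sfswap (3253 bp), RNA-binding or splicing genes outside it, picked after their positions were seen. Such genes outside the list were not counted by direction. Most of these counts are 0 or 1 gene per list and are read as positions, not as a change of the group.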

How the data were processed

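The data were the authors' 2 deposited lists of regions, higher and lower in the knockout, with chromosome, start and end on mm10. The submitters' processing notes name Bismark and MACS2; the differential test, its threshold, any pooling and the use of inputs and spike-ins are not given in the sources used here. The lists write the knockout as OgtiTKO, read here as the Ogt iKO of the labels. Listed starts count from 0, and positions are given counting from 1. Gene spans and promoter windows came from RefSeq tables (GRCm38.p6; 49943 genes, 31396 autosomal windows). Midpoints were classed as within 1 kb of a gene end, otherwise inside a gene, otherwise intergenic. Broad and narrower regions of the same list were compared by Fisher's exact test (two-sided), with Benjamini-Hochberg adjustment across the 6 class tests and across the 4 start and finish tests; the tests treat regions as independent. Members, gene lists and tests were chosen with earlier results of these data known. Named items were the 15 widest of each list, genes with 2 or more broad midpoints and list genes holding one; 338 of 339 list symbols were found. Some genes are not reported here. Procedures were tested on simulated data. Python 3.11.15, scipy 1.17.1 and pandas 2.3.3 were used.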

Additional observations from a re-analysis of the deposited data

How the results depend on the processing

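Of 105 recomputed values for 16 results, 78 kept their direction and side of the threshold or their range. The higher share among broad regions was 87.6% from 1500 bp and 91.1 to 91.8% with each autosome left out, and that among narrower regions was 79.6% at 1000 to under 2000 bp. Genes holding a higher broad region numbered 670 from 1500 bp and 137 from 3000 bp, and those holding a lower one 90 and 8. The median distance of lower regions to their neighbour was 68111 bp from 3000 bp, on 15 regions. For higher regions, the gene-body and intergenic differences passed in 7 of 7 alternatives each, with odds ratios of 1.35 to 2.01 and 0.429 to 0.614. Counting any overlap, higher regions passed at gene ends (2.08), starts (2.23) and finishes (2.56). The part that region length plays in this was not tested.

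In 17 cases an odds ratio changed sides of 1, none of them past the threshold. For higher regions these were, at gene ends, 0.910 against 1000 to under 2000 bp and 0.998 with protein-coding genes, and at starts 0.838, 0.676 with protein-coding genes and 0.923 within 5 kb. For lower regions from 3000 bp they were 1.34 at gene ends, 0.790 inside genes, 1.13 between genes and 1.5 at starts. With any overlap they were 1.73, 0.850, and 1.31 at starts and 1.49 at finishes. Against 1000 to under 2000 bp they were 1.04 between genes and 1.27 at starts, within 5 kb 1.01 at gene ends, and with protein-coding genes 1.25 at starts; the cause was not tested. No paired analysis was possible because the lists hold no values per sample, and no replicate could be left out.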

Other observations

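Some genes of the lists that held no broad region in their span but had one within 10 kb are given here, looked for after the positions had been seen. A lower region of 2948 bp (chromosome 1, 151465437 to 151468384) lay 1013 bp from Rnf2, which encodes the catalytic ubiquitin ligase of Polycomb repressive complex 1. Higher regions lay 1231 bp from the histone deacetylase gene Hdac2 (2172 bp wide, chromosome 10, 37003121 to 37005292) and 2517 bp from the BMP receptor gene Bmpr2 (2018 bp wide, chromosome 1, 59759744 to 59761761). Besides Fgf5, described above, the higher region in Oga lay 7529 bp from Fgf8. Nearness to a gene was not tested.

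Of the broad regions outside protein-coding genes, 48 of 168 higher and 10 of 23 lower ones lay within 10 kb of such a gene. The median distances were 29791 bp (7 to 492968 bp) and 12379 bp (1013 to 161937 bp). Narrower regions were not compared in this way, so nearness to genes is not read as a trait of broad regions.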
